A study of Mus musculus with 12 samples.

Results

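Bile acid synthesis and transport in mouse liver was followed through 10 genes, namely Cyp7a1, Cyp8b1, Cyp27a1, Cyp7b1, Hsd3b7, Akr1d1, Slc27a5, Baat, Slc10a1 and Abcb11. They were found by symbol in the deposited table of transformed values and joined by Ensembl identifier to the table of counts, so that they are 10 of 51912 genes. All 10 were also among the 17859 genes of the transformed table and among the 8594 genes with enough counts to be tested.

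Liver RNA from 12 adult male mice was sequenced from the 3′ end of each messenger RNA, and the mice formed 4 groups of 3. WT corn oil mice were wild-type animals given the vehicle alone. The other groups received CITCO, a potent activator of the human nuclear receptor CAR, at 10 mg/kg into the peritoneum each day for 4 days, and were killed on day 5. They were WT CITCO mice, hCAR/hPXR CITCO mice, in which human CAR and PXR stand in for the mouse receptors, and Car KO/hPXR CITCO mice, which lack mouse Car and carry human PXR. Both engineered strains therefore share human PXR, and they were bred on a C57BL/6NTac background. Corn oil libraries of the engineered strains were not analysed here, so a response to CITCO in these mice cannot be told apart from their genotype.

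Levels are normalised read counts (CPM, counts scaled to a common library size after TMM normalisation between libraries). The libraries held between 1167027 and 2341572 counts, and a count of 3 was worth 1.34 to 2.505 CPM. The libraries matched their genotype labels: Nr1i2, the mouse gene for PXR, had 0 to 2 counts in the 6 engineered livers and 100 to 199 in the 6 WT livers, and Nr1i3, the mouse gene for CAR, had 0 to 6 against 104 to 287. Cyp2b10, the classical CAR target, had 184 to 288 counts in the hCAR/hPXR livers and 0 to 6 in all others. All 8 hepatocyte markers were tested, with a summed level of 29368 to 45678 CPM, whereas the 8 cholangiocyte markers summed to 18.3 to 44.2 CPM. In whole liver, fewer cells of a type and less RNA per cell cannot be told apart.

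Bile acids are made from cholesterol in hepatocytes. In the classical pathway Cyp7a1 adds the first hydroxyl group and sets the rate, and Cyp8b1 decides whether the product becomes cholic acid; in the alternative pathway Cyp27a1 oxidises the side chain first and Cyp7b1 follows. The products are then coupled to taurine, secreted into bile and taken up again from portal blood, and bile acids returning to the liver repress Cyp7a1 through the receptor FXR.

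Cyp7a1 (cholesterol 7α-hydroxylase, chromosome 4 of GRCm38, 6265612 to 6275633, minus strand) was the member that differed most between the groups. It had 55.1, 96.6 and 101 CPM in the 3 WT corn oil libraries and 98.6, 44.9 and 124 CPM in the WT CITCO libraries. In hCAR/hPXR CITCO livers it had 24.9, 38.8 and 24.2 CPM, and in Car KO/hPXR CITCO livers 62.9, 44.3 and 40.2 CPM. All 3 hCAR/hPXR values lay below every value of the other groups, whereas the 2 WT groups overlapped and WT CITCO replicate 2 lay within the range of the Car KO/hPXR livers. By mean level the groups ran from hCAR/hPXR CITCO at 29.3 ± 8.22 CPM (SD, n = 3) through Car KO/hPXR CITCO at 49.1 ± 12.1 and WT corn oil at 84.4 ± 25.5 to WT CITCO at 89.1 ± 40.3 (SD, n = 3 each). The pair of WT groups overlapped, as did the Car KO/hPXR and WT groups.

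**Figure D1:**
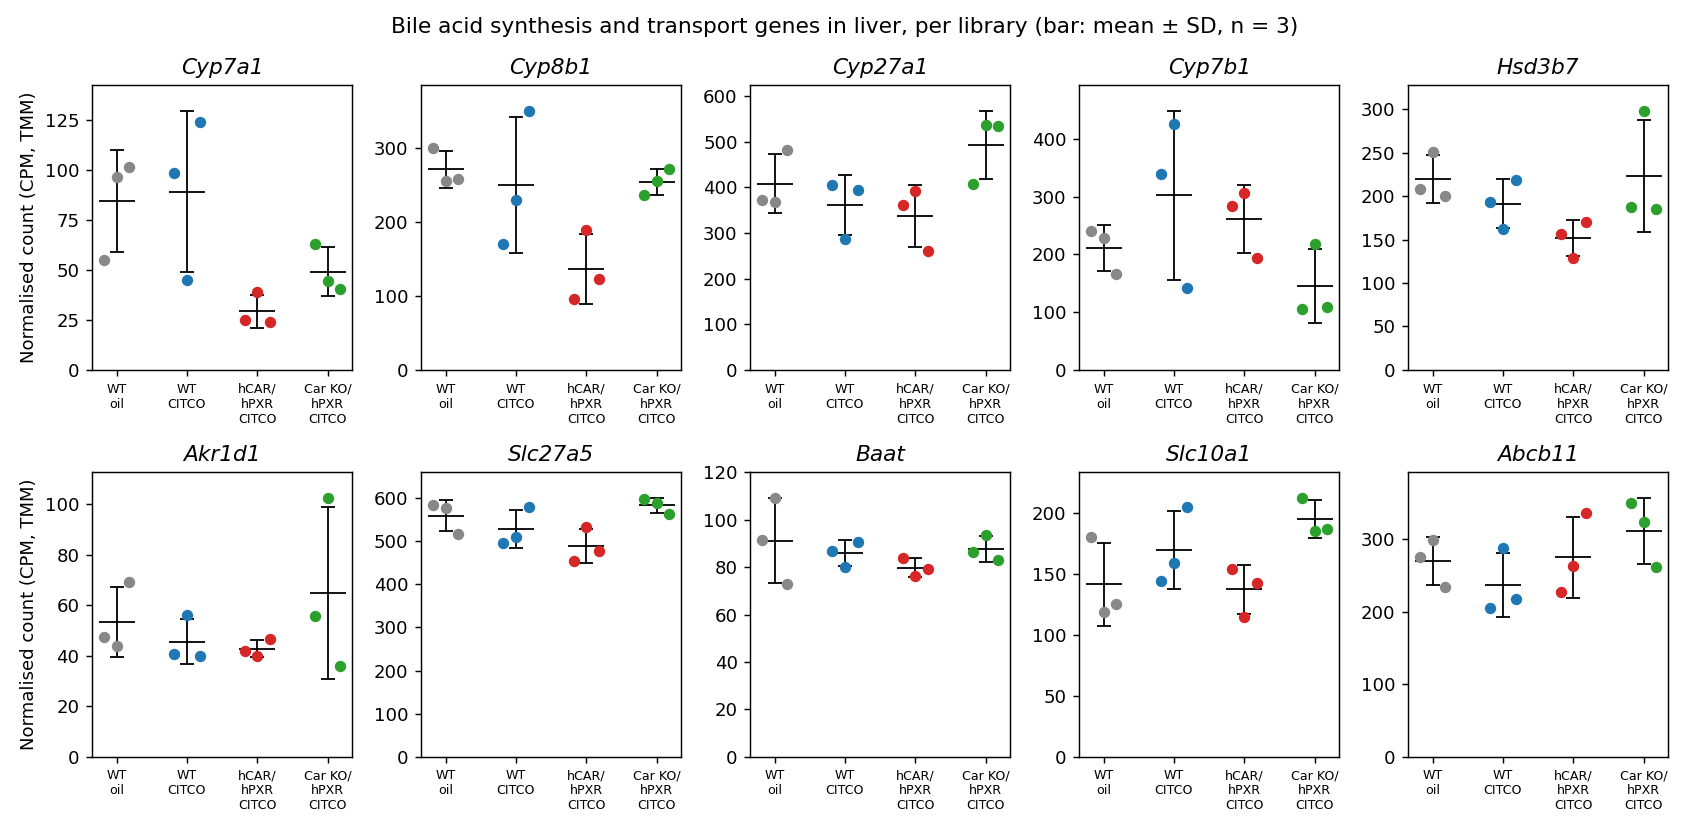
Normalised counts (CPM, linear axes from 0) of each of the 10 genes in the 12 libraries, by group; each point is a library, and the black bars are the mean and SD of 3 libraries. Cyp7a1 stands at 24.2 to 38.8 CPM in the hCAR/hPXR CITCO libraries, below the other 9, while Baat and Slc27a5 hardly vary.

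Cyp7a1 was 3.02-fold lower in hCAR/hPXR than in WT mice given CITCO, with a log2 fold change of -1.59 (SE 0.33, 95% interval -2.29 to -0.90). The adjusted p-value was 0.0376 in the quasi-likelihood test of edgeR, adjusted by Benjamini-Hochberg over all 8594 genes. The exact permutation test of the log2 levels gave p = 0.1 (two-sided), which is the smallest that 3 against 3 libraries can give. The direction held in every setting tried, but the call rested on single livers: it was lost without WT CITCO replicate 1 (adjusted p = 0.162), WT CITCO replicate 3 (0.182), hCAR/hPXR CITCO replicate 1 (0.164) or hCAR/hPXR CITCO replicate 3 (0.168). It was also just missed in a fit of these 2 groups alone (0.0554), in limma on the deposited transformed values (0.0517) and with the replicate number as a block (0.0708). The authors' published list of genes differing between hCAR/hPXR and WT mice after 4 days of CITCO does not hold Cyp7a1.

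**Figure D2:**
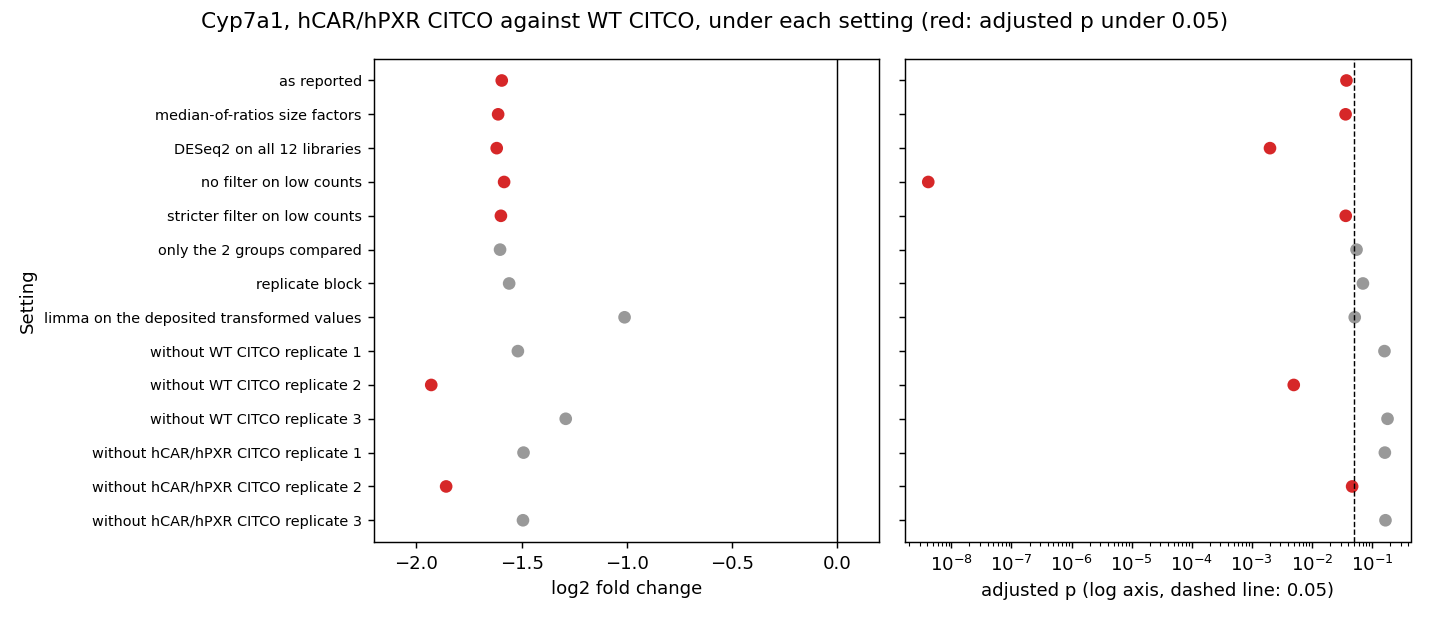
Cyp7a1 in hCAR/hPXR CITCO against WT CITCO under each processing setting: the log2 fold change (left) and the adjusted p on a log axis (right, dashed line at 0.05); red points pass 0.05. The log2 fold change stays between -1.93 and -1.01, while the adjusted p falls on either side of the line.

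Cyp7a1 in Car KO/hPXR CITCO livers lay between the other CITCO groups. Against WT CITCO its log2 fold change was -0.85 (SE 0.32, 95% interval -1.52 to -0.18, adjusted p = 0.373 by edgeR), and hCAR/hPXR against Car KO/hPXR CITCO gave -0.75 (SE 0.34, 95% interval -1.46 to -0.03, adjusted p = 0.448). CITCO in WT mice gave 0.09 (SE 0.30, 95% interval -0.55 to 0.73, adjusted p = 0.961), an interval that leaves room for a change of either sign. Its counts were modest, from 29 in hCAR/hPXR CITCO replicate 3 (95% Poisson interval 19.4 to 41.6, counting error only) to 176 in WT CITCO replicate 3.

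Cyp8b1 (sterol 12α-hydroxylase, chromosome 9 of GRCm38, 121914356 to 121916305, minus strand) is a gene with a single exon. Its 250 bases before the start site are printed because, among the 6 members with a RefSeq promoter entry, they alone held any of the 4 motifs searched, and Abcb11, whose levels overlapped between all groups, is set beside it. Capitals mark the motif matches; both sequences are RefSeq's on GRCm38.p6, minus strand, 5′ to 3′, at chr9:121916306-121916555 and chr2:69342617-69342866.
Cyp8b1: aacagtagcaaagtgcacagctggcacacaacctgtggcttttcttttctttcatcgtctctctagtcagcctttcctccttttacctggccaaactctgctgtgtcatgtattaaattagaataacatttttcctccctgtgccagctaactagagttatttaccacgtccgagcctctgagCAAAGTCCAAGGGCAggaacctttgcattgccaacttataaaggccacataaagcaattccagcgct
Abcb11: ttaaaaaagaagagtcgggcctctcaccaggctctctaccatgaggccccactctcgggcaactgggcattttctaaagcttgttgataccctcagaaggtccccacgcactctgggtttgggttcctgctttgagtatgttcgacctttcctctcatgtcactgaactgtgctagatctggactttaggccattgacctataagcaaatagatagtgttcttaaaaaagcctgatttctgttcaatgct

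The capitals in Cyp8b1 are a CAAAGTCCA match for the motif of HNF4A, 67 to 59 bases before the start, and a CAAGGNCA match for NR5A2 (LRH-1), 60 to 53 bases before it, which overlap. Both factors are known activators of bile acid synthesis genes. Searched on both strands of 32851 windows of this length, CAAAGTCCA occurred in 0.384% and CAAGGNCA in 5.53% of windows. The ONECUT1 letters ATCAAT (6.72% of windows) and the FOXA2 letters TGTTTAC (3.17%) had no match in the windows of these 6 members, which were Cyp8b1, Cyp27a1, Hsd3b7, Akr1d1, Slc10a1 and Abcb11. The Cyp27a1 window matched no GENCODE transcript start and ended at 74713534, short of the annotated gene start at 74713574. Slc10a1 had more than 1 window. The absence of a match says only that these letters are not in the window. Windows of Cyp7a1, Cyp7b1, Slc27a5 and Baat were not used here. Hnf4a and Nr5a2, named here for these motifs with their values known, were not called in any comparison by edgeR (adjusted p of 0.665 or more for Hnf4a and 0.885 or more for Nr5a2).

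In livers, Cyp8b1 had 299.6, 256 and 258 CPM with corn oil and 170.0, 230.25 and 350.4 CPM in WT mice given CITCO. It had 96.4, 189 and 123 CPM in the hCAR/hPXR libraries and 236, 256 and 272 CPM in the Car KO/hPXR libraries. The hCAR/hPXR livers were thus below all Car KO/hPXR and corn oil livers, and overlapped only with WT CITCO replicate 1. The log2 fold change was -0.88 (SE 0.24, adjusted p = 0.181 by edgeR) against WT CITCO and -0.90 (SE 0.24, adjusted p = 0.116) against Car KO/hPXR CITCO, and neither passed the test. Without hCAR/hPXR CITCO replicate 2, the highest of its group, both did (adjusted p = 0.0457 and 0.0309), and DESeq2 called the second on all 12 libraries (adjusted p = 0.0183).

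Cyp27a1 (sterol 27-hydroxylase, chromosome 1, 74713574 to 74737892, plus strand) opens the alternative pathway. It had 373, 369 and 482 CPM with corn oil, 404, 286 and 395 in WT CITCO, 361, 392 and 261 in hCAR/hPXR CITCO and 407, 538 and 535 CPM in Car KO/hPXR CITCO libraries. The Car KO/hPXR livers lay above all other livers given CITCO, with a log2 fold change of 0.45 over WT CITCO (SE 0.19, adjusted p = 0.469), and hCAR/hPXR against Car KO/hPXR gave -0.54 (SE 0.19, adjusted p = 0.271). Neither difference passed the adjusted threshold of edgeR's test.

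Cyp7b1 (oxysterol 7α-hydroxylase, chromosome 3, 18071950 to 18243338, minus strand) acts after Cyp27a1. Its levels were 240.1, 228 and 166 CPM with corn oil, 339, 427 and 141 in WT CITCO, 283, 307 and 194 in hCAR/hPXR CITCO and 106, 219 and 109 CPM in Car KO/hPXR CITCO libraries. The spread among WT CITCO livers was wide, and each pair of groups overlapped. The log2 fold change of Car KO/hPXR against WT CITCO was -1.07 (SE 0.33, adjusted p = 0.216), and that of hCAR/hPXR against Car KO/hPXR was 0.86 (SE 0.33, adjusted p = 0.328). Of the 6 fits that left out a library, the first passed in that without WT CITCO replicate 3, the lowest WT liver (log2 fold change -1.41, adjusted p = 0.0216).

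Cyp7a1 and Cyp7b1 parted in single livers too. WT CITCO replicate 3 had the highest Cyp7a1 and the lowest Cyp7b1 of its group, and WT CITCO replicate 2 the lowest Cyp7a1 and the highest Cyp7b1. The ratio of Cyp7a1 to Cyp7b1 counts, read only between libraries, was 0.0878, 0.126 and 0.124 in the hCAR/hPXR livers. It was 0.593, 0.202 and 0.368 in the Car KO/hPXR livers, 0.291, 0.105 and 0.876 with WT CITCO and 0.229, 0.423 and 0.611 with corn oil. Ratios of the hCAR/hPXR livers were below those of the Car KO/hPXR and corn oil livers, while WT CITCO replicate 2 fell among them.

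**Figure D3:**
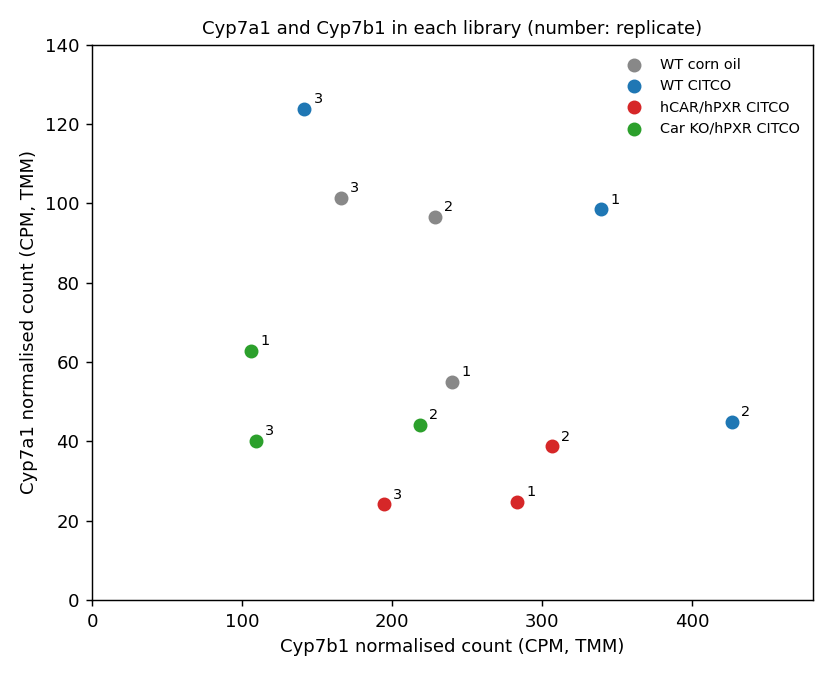
Cyp7a1 against Cyp7b1 in each of the 12 libraries (CPM, both axes linear from 0; colours are groups and numbers replicates). The hCAR/hPXR CITCO livers combine 24.2 to 38.8 CPM of Cyp7a1 with 194 to 307 CPM of Cyp7b1.

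Hsd3b7 and Akr1d1 encode enzymes that convert the steroid ring after 7α-hydroxylation. Hsd3b7 (chromosome 7, 127800604 to 127803802, plus strand) had 208, 251 and 199.8 CPM with corn oil, 193, 162 and 219 in WT CITCO, 156, 129 and 170.2 in hCAR/hPXR CITCO and 187, 298 and 185 CPM in Car KO/hPXR CITCO libraries. The hCAR/hPXR livers lay below the Car KO/hPXR livers (log2 fold change -0.56, SE 0.19, adjusted p = 0.271), without passing edgeR's adjusted threshold. An annotated gene that overlaps it on the same strand, Gm49388, is listed at 0 in every library, and how reads of both were shared was not tested. Akr1d1 (chromosome 6, 37530173 to 37568815, plus strand) had 47.5, 43.7 and 69.4 CPM with corn oil, 40.9, 56.0 and 40.1 in WT CITCO, 42.0, 39.9 and 46.7 in hCAR/hPXR CITCO and 55.9, 103 and 36.1 CPM in Car KO/hPXR CITCO libraries. Car KO/hPXR CITCO replicate 2 stood far above the other livers, and no difference of Akr1d1 had an unadjusted p under 0.05.

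Slc27a5 and Baat join the finished bile acid to coenzyme A and then to taurine, and they were the steadiest members. Slc27a5 (chromosome 7, 12988346 to 12998192, minus strand) had 584, 577 and 518 CPM with corn oil, 496, 511 and 579 in WT CITCO, 455, 533 and 478 in hCAR/hPXR CITCO and 598, 589 and 564 CPM in Car KO/hPXR CITCO libraries. Its highest level was only 1.31 times its lowest, and 1.02% of the genes tested varied less over the 12 libraries. Baat (chromosome 4, 49489422 to 49506557, minus strand) had 91.4, 109 and 73.1 CPM with corn oil, 86.9, 80.2 and 90.8 in WT CITCO, 83.9, 76.4 and 79.2 in hCAR/hPXR CITCO and 86.4, 93.5 and 83.0 CPM in Car KO/hPXR CITCO libraries. Cyp7a1 was at the other end, with a highest level 5.12 times the lowest and 94.8% of the genes tested varying less.

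The bile acid transporters of the 2 faces of the hepatocyte showed small differences. Slc10a1 (NTCP, which takes conjugated bile acids up from blood, chromosome 12, 80953183 to 80968705, minus strand) had 180.0, 118 and 125 CPM with corn oil, 144, 159 and 205 in WT CITCO, 154, 115 and 143 in hCAR/hPXR CITCO and 212, 185 and 186 CPM in Car KO/hPXR CITCO libraries. The hCAR/hPXR livers lay below the Car KO/hPXR livers (log2 fold change -0.51, SE 0.19, adjusted p = 0.316), which did not pass the test. Abcb11 (BSEP, the bile salt export pump, chromosome 2, 69238282 to 69342616, minus strand) had 275, 299 and 234 CPM with corn oil, 205, 287 and 217 in WT CITCO, 227, 262 and 336 in hCAR/hPXR CITCO and 349, 324 and 261 CPM in Car KO/hPXR CITCO libraries. All 4 groups overlapped for Abcb11, and its log2 fold change of Car KO/hPXR against WT CITCO was 0.40 (SE 0.18, adjusted p = 0.508 by edgeR).

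The first comparison set human against mouse receptors in mice given CITCO, where genotype and response to CITCO cannot be told apart. Between hCAR/hPXR and WT CITCO mice 1 of the 10 members, Cyp7a1, was called (adjusted p under 0.05 and fold change over 1.5), where 0.407% of all genes tested were. The unadjusted p was under 0.05 for 2 members, Cyp7a1 and Cyp8b1, against 8.81% of all genes, and the groups did not overlap for 1 member, Cyp7a1, against 13.6% of all genes. Of the fitted log2 fold changes 9 were below 0 and 1, that of Abcb11, above 0, with a median of -0.16 beside 0.01 over all genes tested.

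The next comparison used the same WT CITCO livers. In Car KO/hPXR against WT CITCO mice, which differ in both receptors, 0 members were called by edgeR, and the background was 0.256%. DESeq2 and limma also called 0. The unadjusted p was under 0.05 for 4 members, Cyp7a1 and Cyp7b1 on the lower side and Cyp27a1 and Abcb11 on the higher, beside 9.3% of all genes. The libraries did not overlap for 1 member, Cyp27a1, beside 14.2% of all genes. The members' median log2 fold change was 0.17.

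CITCO in WT mice, again the same 3 livers, was set against corn oil to show the effect of the treatment with mouse receptors. By edgeR 0 members were called, with a background of 0.233%, and DESeq2 and limma called 0 as well. An unadjusted p under 0.05 was found for 0 members (9.13% of all genes), and 0 members had groups that did not overlap (14.7% of all genes). The fitted log2 fold changes ran from -0.23 for Akr1d1 to 0.52 for Cyp7b1, with a median of -0.10.

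The last comparison set both engineered strains, given CITCO, against each other, which by their labels differ in human CAR. Between them 0 members were called by edgeR, beside 0.582% of all genes, and limma called 0 and DESeq2 1, Cyp8b1. The unadjusted p was under 0.05 for 6 members (10.6% of all genes). Of these, Cyp7a1, Cyp8b1, Cyp27a1, Hsd3b7 and Slc10a1 were on the lower side in hCAR/hPXR mice (5 members, against 5.03% of all genes in that direction) and Cyp7b1 on the higher. In 6 members all hCAR/hPXR libraries lay below all Car KO/hPXR libraries, namely the same 5 and Slc27a5, where 15.1% of all genes did not overlap and 7.06% did so in that direction. These genes were measured in the same 6 livers and are not independent of one another. The median log2 fold change was -0.52 beside 0.01 over all genes, and -0.28 without Car KO/hPXR CITCO replicate 2. Summed over the 10 members, the hCAR/hPXR libraries held 1856 to 2080.4 CPM, below the 2272 to 2649 CPM of the Car KO/hPXR, 2177 to 2361 of the WT CITCO and 2227 to 2353 CPM of the corn oil libraries.

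**Figure D4:**
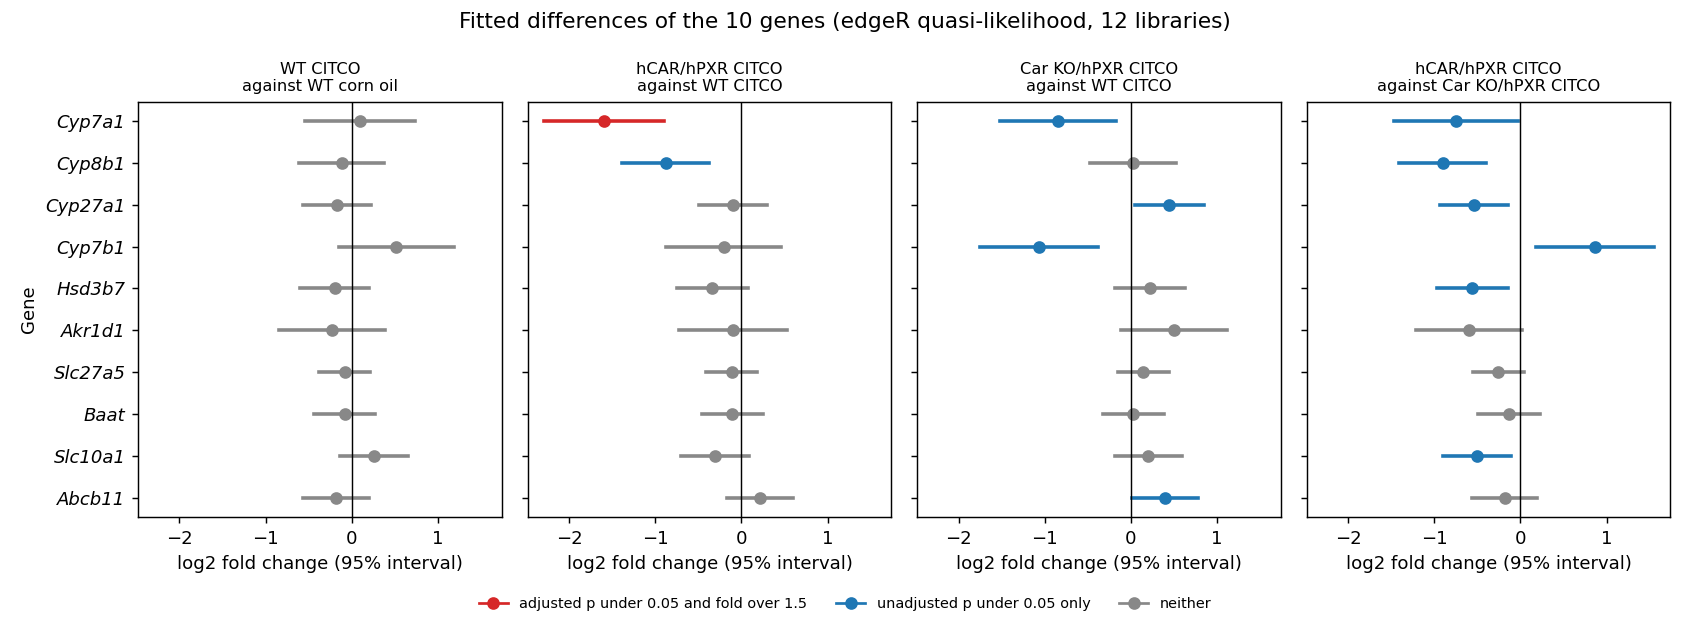
Fitted log2 fold changes of the 10 genes with their 95% intervals in the 4 comparisons (edgeR, 12 libraries); red marks adjusted p under 0.05 with a fold over 1.5, blue an unadjusted p under 0.05 alone. In hCAR/hPXR against Car KO/hPXR, 9 of the 10 points lie left of 0, and Cyp7a1 against WT CITCO is the only red point.

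Tested for any difference among the 4 groups at once, 1 of the 10 members was called, Cyp7a1 (adjusted p = 0.0388 by edgeR's F test), where 1.42% of all genes were. An unadjusted p under 0.05 was found for 6 members, beside 11.6% of all genes. Over the 12 fits that each left out 1 library the adjusted p of Cyp7a1 ran from 0.00595 to 0.169 and passed 0.05 in 3. The library left out in those fits was replicate 1 of the Car KO/hPXR CITCO or corn oil group, or WT CITCO replicate 2.

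Of 19 other enzymes and carriers of synthesis 16 were tested and 0 were called by edgeR in any of the 4 comparisons, with an unadjusted p under 0.05 for 4, 3, 3 and 3 of them. The shares of all genes were 8.81%, 9.3%, 9.13% and 10.6%. These and the following values are in the order hCAR/hPXR against WT CITCO, Car KO/hPXR against WT CITCO, WT CITCO against corn oil and hCAR/hPXR against Car KO/hPXR. DESeq2 called 0, 1, 0 and 1 of them, and limma 0. Their medians were -0.17, -0.03, 0.06 and -0.02 on the log2 scale. One of them, Por, supplies electrons to microsomal P450 enzymes such as Cyp7a1 and Cyp8b1. It differed among the 4 groups (adjusted p = 0.0327, edgeR's F test), where 1.42% of all genes tested did. Por was called in none of the 4 comparisons and is named with its values known. It had 223, 214 and 206 CPM with corn oil, 354, 241 and 286 in WT CITCO, 412, 494 and 325 in hCAR/hPXR CITCO and 274, 244 and 289 CPM in Car KO/hPXR CITCO libraries, so that 2 of 3 hCAR/hPXR livers exceeded all others. Leaving out single libraries gave adjusted p-values of 0.0222 to 0.136 for Por, with 4 of 12 under 0.05. Of the 3 genes of taurine supply and the 12 tested of 16 other bile acid and bile lipid transporters, 0 were called by edgeR, DESeq2 or limma in any comparison. For taurine supply 0, 1, 0 and 0 genes, and for these transporters 3, 0, 1 and 1, had an unadjusted p under 0.05. The medians were -0.04, -0.22, -0.44 and 0.14 for taurine supply and -0.13, -0.02, 0.05 and -0.13 for the transporters.

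**Figure D5:**
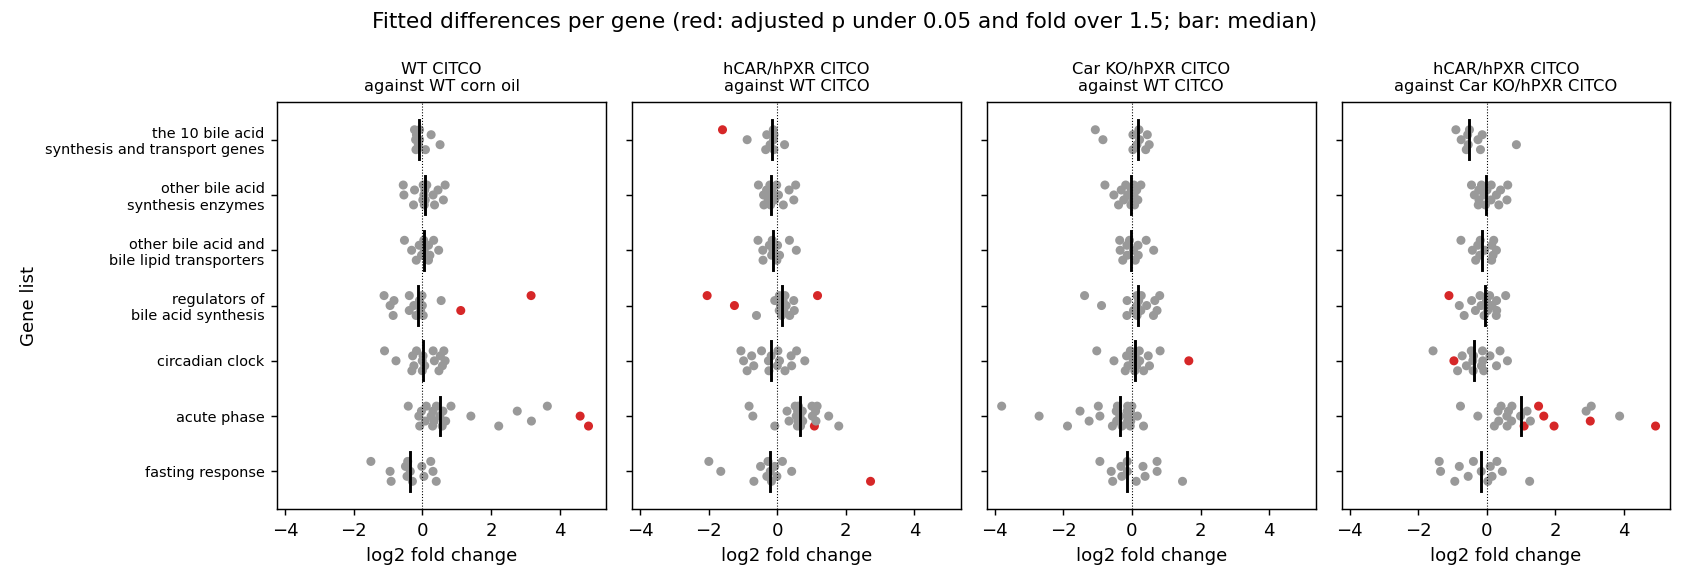
Fitted log2 fold changes of single genes, by list, in the 4 comparisons; red points have an adjusted p under 0.05 and a fold over 1.5, and black bars are medians. The other synthesis enzymes and transporters hold 0 red points, while 6 acute phase genes are red in hCAR/hPXR against Car KO/hPXR CITCO.

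All 16 regulators of bile acid synthesis on the list were tested, and 3 were called between hCAR/hPXR and WT CITCO, beside 0.407% of all genes. In WT CITCO against corn oil 2 were called, beside 0.233%, and in hCAR/hPXR against Car KO/hPXR CITCO 1, beside 0.582%. Onecut1 (HNF6), a liver factor that binds the Cyp7a1 promoter, had 7.61, 7.76 and 23.5 CPM with corn oil, 144, 113 and 90.1 in WT CITCO, 37.3, 19.7 and 26.7 in hCAR/hPXR CITCO and 47.7, 41.7 and 43.5 CPM in Car KO/hPXR CITCO libraries. It was lower in hCAR/hPXR than in WT CITCO livers (log2 fold change -2.04, SE 0.31, adjusted p = 0.00262) and rose with CITCO in WT mice (3.17, SE 0.34, adjusted p = 0.000195), in all 12 fits that left out a library. The WT CITCO livers alone reached 90 CPM.

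Foxa2, a liver factor with a known role in bile acid homeostasis, had 25.5, 22.6 and 19.9 CPM with corn oil, 53.8, 53.2 and 41.5 in WT CITCO, 23.3, 19.7 and 19.2 in hCAR/hPXR CITCO and 52.1, 41.7 and 40.2 CPM in Car KO/hPXR CITCO libraries. Without overlap, hCAR/hPXR livers were below WT CITCO (log2 fold change -1.25, SE 0.22, adjusted p = 0.00961) and Car KO/hPXR CITCO livers (-1.10, SE 0.22, adjusted p = 0.0242), and WT CITCO livers were above corn oil (1.12, SE 0.21, adjusted p = 0.0292). The first call was lost without WT CITCO replicate 1 (adjusted p = 0.0708). The second held among 6 such fits only in that without Car KO/hPXR CITCO replicate 2 (0.0437, others up to 0.140), and the third only in that without WT CITCO replicate 3 (0.0167, others up to 0.204).

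Prox1, a corepressor of Cyp7a1, had 188, 343 and 321 CPM with corn oil, 145, 162 and 172 in WT CITCO, 384, 386 and 309 in hCAR/hPXR CITCO and 212, 245 and 283 CPM in Car KO/hPXR CITCO libraries. It was higher in hCAR/hPXR than in WT CITCO livers (log2 fold change 1.18, SE 0.20, adjusted p = 0.00902), except without WT CITCO replicate 1 (adjusted p = 0.0822). The medians of the list were 0.15, 0.17, -0.13 and -0.04 in the 4 comparisons, with an unadjusted p under 0.05 for 3, 3, 5 and 2 genes. Over all genes the shares were 8.81%, 9.3%, 9.13% and 10.6%. Nr0b2, the FXR target SHP that represses Cyp7a1, is named after its values were seen. It had 41.2, 65.6 and 33.8 CPM with corn oil, 17.5, 19.4 and 27.4 in WT CITCO, 40.4, 15.04 and 26.7 in hCAR/hPXR CITCO and 20.3, 58.4 and 35.3 CPM in Car KO/hPXR CITCO libraries. All corn oil libraries lay above all WT CITCO libraries (log2 fold change -1.12 of WT CITCO against corn oil, SE 0.38, adjusted p = 0.333 by edgeR), and the CITCO groups overlapped. For the 4 groups at once the unadjusted p of Nr0b2 was 0.0405 and the adjusted p 0.401. In Onecut1, Foxa2 and Prox1 the corn oil livers overlapped the hCAR/hPXR CITCO livers. The part of these regulators in the Cyp7a1 levels was not tested.

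Cyp7a1 is known to follow the clock and to be lowered by inflammatory signals, and genes of both kinds were called here. Of 17 clock genes tested, Dbp, an activator of Cyp7a1, had 56.9, 67.7 and 75.5 CPM with corn oil, 98.6, 96.8 and 113 in WT CITCO, 43.0, 73.5 and 50.9 in hCAR/hPXR CITCO and 104, 92.7 and 130 CPM in Car KO/hPXR CITCO libraries. The hCAR/hPXR livers were lower than the Car KO/hPXR livers (log2 fold change -0.96, SE 0.21, adjusted p = 0.0390), and Nr1d1 (REV-ERBα) was higher in Car KO/hPXR than in WT CITCO livers (1.66, SE 0.31, adjusted p = 0.0298). Each was the only clock gene called in its comparison, where 0.582% and 0.256% of all genes tested were called. Among the fits that left out a library, Dbp passed in those without replicate 2 of either engineered strain (others up to 0.212), and Nr1d1 in those without Car KO/hPXR CITCO replicate 1 or else WT CITCO replicate 3 (others up to 0.205). The medians of the clock list were -0.17, 0.09, 0.02 and -0.39, with an unadjusted p under 0.05 for 3, 2, 3 and 5 genes. Over all genes the shares were 8.81%, 9.3%, 9.13% and 10.6%. The time of killing was not given in the labels, and its part in the Cyp7a1 levels was not tested.

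The 24 acute phase genes summed to 45480, 24425 and 32928 CPM in the hCAR/hPXR libraries, against 26442, 23356 and 17597 in WT CITCO, 18044, 19828 and 17071 in Car KO/hPXR CITCO and 18019, 17361 and 15427 CPM in corn oil libraries. The hCAR/hPXR livers were the 3 highest but for WT CITCO replicate 1, which exceeded the lowest of them. Set against Car KO/hPXR CITCO livers, 6 of the 23 tested were higher in hCAR/hPXR livers (Saa2, Saa4, Orm2, Hp, Lbp and Steap4, log2 fold changes 1.09 to 4.92), with a list median of 0.98. Against WT CITCO 1 was higher, Saa4 (1.08, adjusted p = 0.0484), with a median of 0.66, or 0.33 without hCAR/hPXR CITCO replicate 1. WT CITCO against corn oil gave 2 (Saa1 and Saa2, with 4.60 and 4.84) and a median of 0.51, and Car KO/hPXR against WT CITCO gave 0 by edgeR (3 without WT CITCO replicate 3) and a median of -0.36. In the order of the lists above, the unadjusted p was under 0.05 for 16, 6, 11 and 18 genes, DESeq2 called 3, 2, 2 and 12, limma 1, 0, 0 and 6, and edgeR without the filter on low counts 11, 6, 8 and 15. Over all genes tested, 8.81%, 9.3%, 9.13% and 10.6% had such an unadjusted p. In its main fit edgeR called 0.407%, 0.256%, 0.233% and 0.582% of them. Saa4 against WT CITCO missed the threshold with median-of-ratios size factors (adjusted p = 0.0527), with the stricter filter (0.05001) and in the fit of 2 groups (0.0658). Leaving out 1 library gave 0 to 13 called genes in hCAR/hPXR against Car KO/hPXR CITCO (0 without Car KO/hPXR CITCO replicate 3, 2 without replicate 1 of either group, 13 without hCAR/hPXR CITCO replicate 2), 0 to 2 against WT CITCO (2 without hCAR/hPXR CITCO replicate 2 or replicate 3, 0 in the others) and 0 to 4 in WT CITCO against corn oil (4 without WT CITCO replicate 3, 0 in the others). The part of the acute phase genes in the Cyp7a1 levels was not tested.

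Of 13 fasting response genes tested, Igfbp1 was called between hCAR/hPXR and WT CITCO mice (239 ± 65.1 against 36.2 ± 22.6 CPM, SD, n = 3 each, adjusted p = 0.000783), in each fit that left out a library. That comparison called 0.407% of all genes tested. Igfbp1 had 102 ± 12.0 CPM with corn oil and 101 ± 47.6 in Car KO/hPXR CITCO livers. In hCAR/hPXR against WT CITCO 3 of the 13 genes, Igfbp1 among them, were above 0 and 10 below 0. The list's medians were -0.20, -0.14, -0.35 and -0.16, with an unadjusted p under 0.05 for 4, 2, 3 and 5 genes. Over all genes the shares were 8.81%, 9.3%, 9.13% and 10.6%. Hepatocyte markers summed to 29368, 30022 and 45678 CPM in hCAR/hPXR livers from the lowest to the highest, against 36323 to 44654 in WT CITCO and 39741 to 42550.2 in Car KO/hPXR CITCO livers. Of the 8 cell type lists, 0 genes were called in the 4 comparisons by edgeR. At most 3 genes of a list had an unadjusted p under 0.05. In hCAR/hPXR against WT CITCO these were 3 of the 5 red blood cell markers tested, beside 8.81% of all genes. All 5 were below 0, with a median log2 fold change of -0.54. In WT CITCO against corn oil the lists with more than 1 were Kupffer cell (3 of 8 tested), periportal hepatocyte (2 of 7) and cholangiocyte (2 of 2), beside 9.13% of all genes. Of the Kupffer cell markers 7 were above 0 and 1 below, and of the periportal markers 1 was above and 6 below. The 2 cholangiocyte markers went opposite ways (log2 fold changes -0.74 and 1.12), and 6 of that list were not tested. The part of the hepatocyte markers in the Cyp7a1 levels was not tested.

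Genes whose pattern over the 12 libraries was most like that of Cyp7a1 were found by the root mean square difference of mean-centred log2 CPM. Among the 5 nearest were Fam25c (0.42), Paqr7 (0.44), Zdhhc20 (0.45) and Nat8 (0.46). Nat8 ran from 55.7 ± 9.56 CPM with corn oil and 54.5 ± 6.91 in WT CITCO to 24.7 ± 4.37 in hCAR/hPXR CITCO and 29.8 ± 3.20 in Car KO/hPXR CITCO livers (SD, n = 3 each). Among the members, Cyp8b1 was the most like Cyp7a1 (0.56, place 61 of 8593 genes) and Cyp7b1 the least (1.03, place 7674). These distances describe 12 shared libraries and carry no test.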

How the data were processed

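The members and gene lists were chosen with earlier results of these data known. The authors trimmed reads (Trimmomatic), aligned them with STAR 2.5.2 to GRCm38 and deposited expected counts per gene from RSEM 1.3, per the labels, without normalization; 9.34% of values of detected genes were not whole, and they were rounded here. RSEM shares a read between genes it fits. The deposited log2-like values were made by the authors with DESeq2's variance-stabilising transformation and used only for symbols and 1 alternative. Groups came from the sample labels, which give the dose used here; the methods also name a higher one. No per-sample column was left unmatched.

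In R 4.3.3, edgeR 4.0.16 (expression filter, TMM, quasi-likelihood test, 1 mean per group, all 12 libraries) tested 8594 genes; fold changes are log2, and standard errors come from the F statistic. Calls needed a Benjamini-Hochberg adjusted p under 0.05 and a fold over 1.5 (no fold for the 4-group test). The labels tie each library to no named litter or batch, so p-values measure only the spread between these samples. Alternatives used DESeq2 1.42.0, limma 3.58.1, other size factors, filters and samples, a replicate block, and leaving out each library. The edgeR, DESeq2 and limma fits were tested on simulated data. Members are named in full, with fold changes where the unadjusted p was under 0.05; list genes are named where called, up to 8 a list, and so are the 5 genes nearest to Cyp7a1 in log2 CPM (prior count 2), of which 1 is not reported here. Coordinates are from GENCODE M21 (GRCm38), and promoters from RefSeq (6 of 10 members).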

Additional observations from a re-analysis of the deposited data

How the results depend on the processing

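Cyp7a1 kept its direction in every setting in hCAR/hPXR against WT CITCO, but the number of members called moved. In that comparison it was 1, and it was 2 without a filter on low counts (Cyp7a1 and Cyp8b1) and 0 in a fit of only the 2 groups compared, with limma on the deposited values and with the replicate block. In Car KO/hPXR against WT CITCO it was 0, and 2 without the filter (Cyp7a1 and Cyp7b1). In hCAR/hPXR against Car KO/hPXR CITCO it was 0, and 1 with DESeq2 (Cyp8b1) and 2 without the filter (Cyp8b1 and Cyp7b1). For the 4 groups at once it was 1, and 2 with DESeq2, 3 without the filter and 0 with the replicate block. Without the filter 20067 genes were tested and 184 called in the first comparison, against 35 of 8594; the cause was not tested. WT CITCO against corn oil stayed at 0 in all settings.

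Leaving out 1 library at a time gave 0 to 2 members in hCAR/hPXR against WT CITCO, 0 to 1 in Car KO/hPXR against WT CITCO, 0 to 0 in WT CITCO against corn oil, 0 to 1 in hCAR/hPXR against Car KO/hPXR CITCO and 0 to 2 for the 4 groups at once. The log2 fold change of Cyp7a1 in WT CITCO against corn oil was 0.09 (-0.22 to 0.42 with 1 library left out), and it reversed to -0.15 without WT corn oil replicate 1 and to -0.22 without WT CITCO replicate 3.

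Over all genes tested, deviations of libraries with the same replicate number in their titles correlated by -0.05 to 0.07 over 12 pairs. Such correlations cannot show whether these numbers mark a shared litter or batch. With the replicate block 33 genes were called in hCAR/hPXR against WT CITCO. Cyp7a1 had the lowest count of any member in a single library, 29, with a 95% Poisson interval of 19.4 to 41.6 for counting error alone. By mean count Akr1d1 was lower (78.8 against 97.2 for Cyp7a1). The SD of Cyp7a1 within groups was 0.51 on the log2 scale.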
